A study of Mus musculus with 4 samples.

Results

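The defensin genes are the 70 protein-coding RefSeq genes whose symbol starts with Defa or Defb and a digit, out of 21523 coding genes (autosomes and X), and they comprise 28 alpha and 42 beta defensins. They fell into 5 clusters, in which each gene lies under 300 kb from the next. The peaks described were chosen by the position of their summit, within 1 kb of either annotated end of a gene, inside a cluster or up to 100 kb beyond it. Because the genes and this rule were proposed with results of these data known, values are given as descriptions and without a test.

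Defensins are short secreted peptides with a framework of paired cysteines that kill microbes by disrupting their membranes. The mouse alpha defensins, or cryptdins, are products of Paneth cells in the small intestine, where the protease encoded by Mmp7 releases the active peptide. The beta defensins are made by many epithelia, and many of them by the epididymis, where several coat sperm. Both classes are tandem families, and CTCF, the zinc-finger protein of chromatin boundaries and loop anchors, was mapped at them here in testis.

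CTCF chromatin immunoprecipitation was done on whole testes of F1 mice from a B6 by CAST cross, with 2 immunoprecipitated (IP) samples and 2 input samples. Age was not given in the sources used here, and no other allele or treatment is named. The tissue was thawed from frozen and was not sorted, so germ cells and somatic cells contribute together. The values come from 1 merged list of 51871 peaks, which gives no replicate error, and how deeply the samples were sequenced is unknown. Fold is the authors' enrichment at the summit over background, with a median of 6.82 in the list, and the −log10 q is theirs too, with a median of 29.5.

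Promoter windows are shown for the genes whose start sites the peaks stand closest to, and for an alpha pair with identical sequence. The first 3 sequences are the start-site windows of the defensin genes that hold a CTCF summit, on chromosome 2, and the last is a window that the alpha defensins Defa2 and Defa20 share base for base. Each is 300 bases from RefSeq (GRCm38.p6, the coordinates of mm10), 5′ to 3′ along the gene, from 250 bases before the start site to 50 after it. Capitals mark AGGNGGC or AGAGGGC, versions of the core of the CTCF motif, on either strand. The Defb28 window is chr2:152518005-152518304 (plus strand), Defb29 is chr2:152539992-152540291 (minus strand) and Defb36 is chr2:152604077-152604376 (plus strand). The Defa2 window is chr8:21378267-21378566 (plus strand) and the Defa20 window chr8:21509008-21509307 (plus strand).
Defb28: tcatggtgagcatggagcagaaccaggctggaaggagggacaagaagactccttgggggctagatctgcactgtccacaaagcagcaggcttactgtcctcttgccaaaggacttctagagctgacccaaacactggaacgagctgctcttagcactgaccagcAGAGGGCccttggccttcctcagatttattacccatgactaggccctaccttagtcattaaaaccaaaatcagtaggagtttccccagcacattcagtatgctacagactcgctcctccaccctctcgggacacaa
Defb29: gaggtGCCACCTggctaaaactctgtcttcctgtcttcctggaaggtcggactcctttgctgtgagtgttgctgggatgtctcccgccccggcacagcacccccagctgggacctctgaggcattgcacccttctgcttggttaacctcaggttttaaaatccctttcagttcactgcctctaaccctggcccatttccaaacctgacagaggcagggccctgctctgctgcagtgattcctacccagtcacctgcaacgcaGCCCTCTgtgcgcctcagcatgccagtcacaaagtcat
Defb36: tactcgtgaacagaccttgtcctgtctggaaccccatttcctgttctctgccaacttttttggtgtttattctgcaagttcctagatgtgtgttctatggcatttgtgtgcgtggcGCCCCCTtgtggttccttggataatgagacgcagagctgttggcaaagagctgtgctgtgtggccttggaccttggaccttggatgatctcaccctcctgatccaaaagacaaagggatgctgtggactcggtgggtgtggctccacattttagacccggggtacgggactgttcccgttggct
Defa2 and Defa20: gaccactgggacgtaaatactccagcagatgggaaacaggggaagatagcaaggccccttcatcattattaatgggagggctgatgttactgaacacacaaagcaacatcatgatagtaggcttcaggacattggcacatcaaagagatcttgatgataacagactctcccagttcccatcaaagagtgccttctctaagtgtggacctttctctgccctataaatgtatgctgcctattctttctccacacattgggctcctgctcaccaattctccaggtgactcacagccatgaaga

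In the Defb36 window the motif letters, AGGGGGC read on the opposite strand, occupied positions 117 to 123 and the summit stood at position 124, counted from 1 at the 5′ end. In the Defb28 window AGAGGGC occupied positions 165 to 171, and the summit stood at 174. In the Defb29 window the summit stood at 90, with the nearest match 78 bases away at positions 6 to 12. AGAGGGC was added after these sequences had been seen. AGGNGGC, which includes AGGGGGC, was found in 0 of 16 alpha windows and in 6 of 30 beta windows (20%), beside 33.8% of 21045 windows of protein-coding genes. The defensin windows were poorer in G and C, with medians of 47.2% (alpha) and 48.3% (beta) beside 56.7% for protein-coding genes. The part of base content in the motif shares was not tested. AGAGGGC was found in 0 of 16 alpha windows and in 4 of 30 beta windows (13.3%), beside 9.19% of the same 21045. As 10 of the 16 alpha windows were identical to that of another alpha gene, they are not 16 separate sequences.

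CTCF summits at the ends of defensin genes were few and lay on chromosome 2. A gene-end summit was listed for 5 of 70 defensin genes (7.14%, exact Clopper-Pearson 95% interval 2.36 to 15.9), where 39.1% of all protein-coding genes had one. These were Defb23, Defb28, Defb29, Defb21 and Defb36, which are beta defensins of 1 cluster. None of the 28 alpha defensins had one, which allows a share of up to 10.7%, against 5 of 42 beta defensins (11.9%, interval 3.98 to 25.6). Without the chromosome 2 cluster the count among beta defensins was 0 of 31, which allows up to 9.68% (exact interval 0 to 11.2). The count outside that cluster was thus 0 in both classes. The intervals cover counting error only and treat as independent genes that are neighbours. In other clustered families the count was 18 of 1109 (1.62%) for olfactory receptors and 2 of 40 (5%) for secretoglobins, which are small secreted proteins.

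Distance to the nearest summit varied with the cluster. Alpha defensins lay a median of 77.3 kb from a summit, from 1.67 kb at Defa38 to 204 kb at Defa5. Beta defensins lay a median of 16.8 kb away, from 0.077 kb at Defb28 to 83.3 kb at Defb2. The median over all protein-coding genes was 2.29 kb. Other clustered families lay farther away than either class, with medians of 96.85 kb for olfactory receptors and 344 kb for secretoglobins. Within the beta class the medians were 1.58 kb for the cluster on chromosome 2, 7.68 kb for chromosome 14, 37.8 kb for chromosome 1 and 31.1 kb for the 24 genes on chromosome 8. The alpha and beta ranges overlapped widely.

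**Figure D1:**
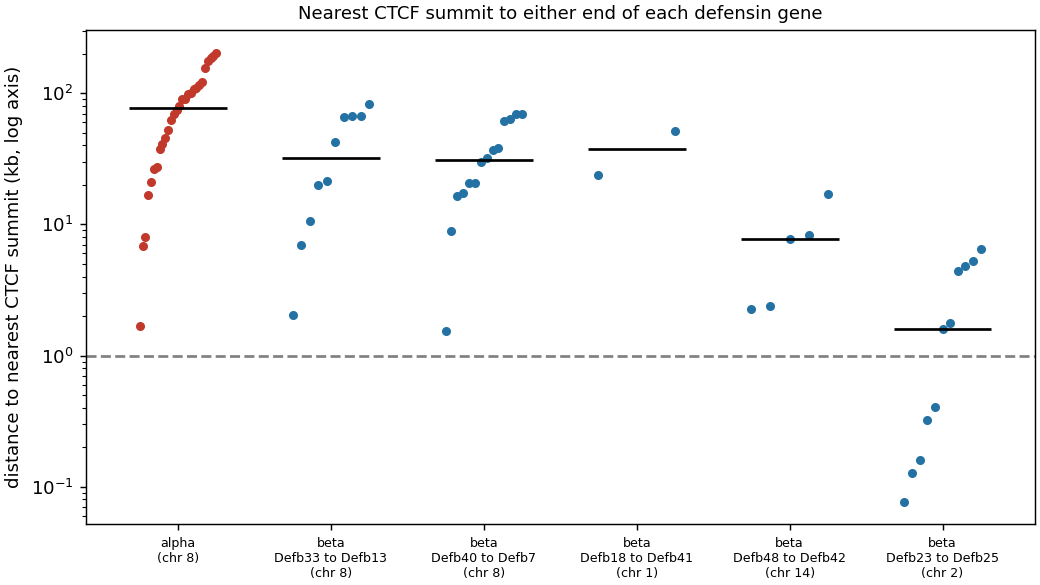
Distance from either annotated end of each of the 70 defensin genes to the nearest CTCF summit, in kb on a log axis, with 1 point per gene, a bar at the median and a dashed line at 1 kb. Points under the line are found in the chromosome 2 cluster, and the alpha defensins have a median of 77.3 kb.

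The chromosome 2 cluster, from Defb23 to Defb25 (152459055 to 152623053), holds 11 beta defensin genes, among them Defb22, which encodes a protein of the sperm surface. It contained 18 peaks in 164 kb, or 110 per Mb (exact Poisson 95% interval 65.0 to 173), beside 20.1 per Mb over the autosomes and X. Among 14646 windows of the same length tiled over the autosomes, 0.580% held at least as many, and the median window held 2. Neighbouring summits in the cluster stood a median of 6.80 kb apart, from 1.46 to 22.0 kb. Of the 18 peaks, 5 lay at a defensin gene end, 3 in the body of a defensin gene and 10 between defensin genes.

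The 5 gene-end summits all lay on the upstream side of a start site. At Defb23 (gene ID 629114; 152459055 to 152464620) the summit at 152464942 stood 322 bp before the start, and its fold was 11.8 (−log10 q 43.7). At Defb28 (gene ID 545475; 152518255 to 152521447) the summit at 152518178 stood 77 bp before the start, and this was the weakest peak of the cluster, at fold 3.44 (−log10 q 4.37). At Defb29 (gene ID 75400; 152538714 to 152540041) the summit at 152540202 stood 161 bp before the start, and its fold was 6.80 (−log10 q 29.4). At Defb36 (gene ID 266620; 152604327 to 152612729) the summit at 152604200 stood 127 bp before the start, and its fold was 7.85 (−log10 q 65.2). At Defb21 (gene ID 403172; 152572743 to 152574944) the summit at 152572338 stood 405 bp before the start, and its fold was 6.06 (−log10 q 53.7). The Defb21 summit also lay 26 bp from an annotated end of Gm14161, a long noncoding RNA gene, so the peak cannot be given to either gene. Of the 5, Defb21 was nearest to the 1 kb limit.

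The 5 peaks at gene ends had a median fold of 6.80, against 7.81 for the remaining peaks of the cluster. Folds of 10 or more belonged to 6 of the 18 peaks, of which 1, at Defb23, stood at a gene end. The strongest peak had a fold of 13.4 at 152544827, 4.79 kb beyond Defb29. The next, with 13.1 at 152487248, lay within Defb22, 1.58 kb from an end. The peaks at 152615723, 152471156 and 152554200 followed with folds of 12.21, 12.04 and 10.51, all between defensin genes. Weaker peaks inside genes were found in Defb19 (fold 4.74) and Defb36 (8.88). Defb19 is a gene of Sertoli cells in the developing testis, and its peak lay 1.77 kb from an end. Genes of the cluster without a summit within 2.5 kb were Defb20, Defb26, Defb45 and Defb25, at 4.44, 6.44, 5.29 and 4.80 kb.

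The 100 kb on either side of the chromosome 2 cluster held peaks at nearly the density of the cluster itself. Beside the 110 per Mb inside, the flanks held 22 peaks, 12 on the side of Defb23 and 10 on the side of Defb25, or 110 per Mb (interval 68.9 to 167). The median fold was 7.80 inside and 6.21 in the flanks. The strongest flank peak, with a fold of 15.9 at 152657594, lay 34.5 kb beyond Defb25, and the strongest on the other side had 11.3 at 152392960, near Sox12, a transcription factor gene. The first summits beyond the edges stood 8.65 kb before Defb23 (fold 9.81) and 20.6 kb after Defb25 (fold 4.47, nearest to Rem1). Of 7 other protein-coding genes lying within the flanks, summits within 1 kb of an end were listed for 4, Nrsn2, Sox12, H13 and Mcts2. Over the flanks of all clusters the count was 5 of 11, beside 39.1% of all protein-coding genes.

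**Figure D2:**
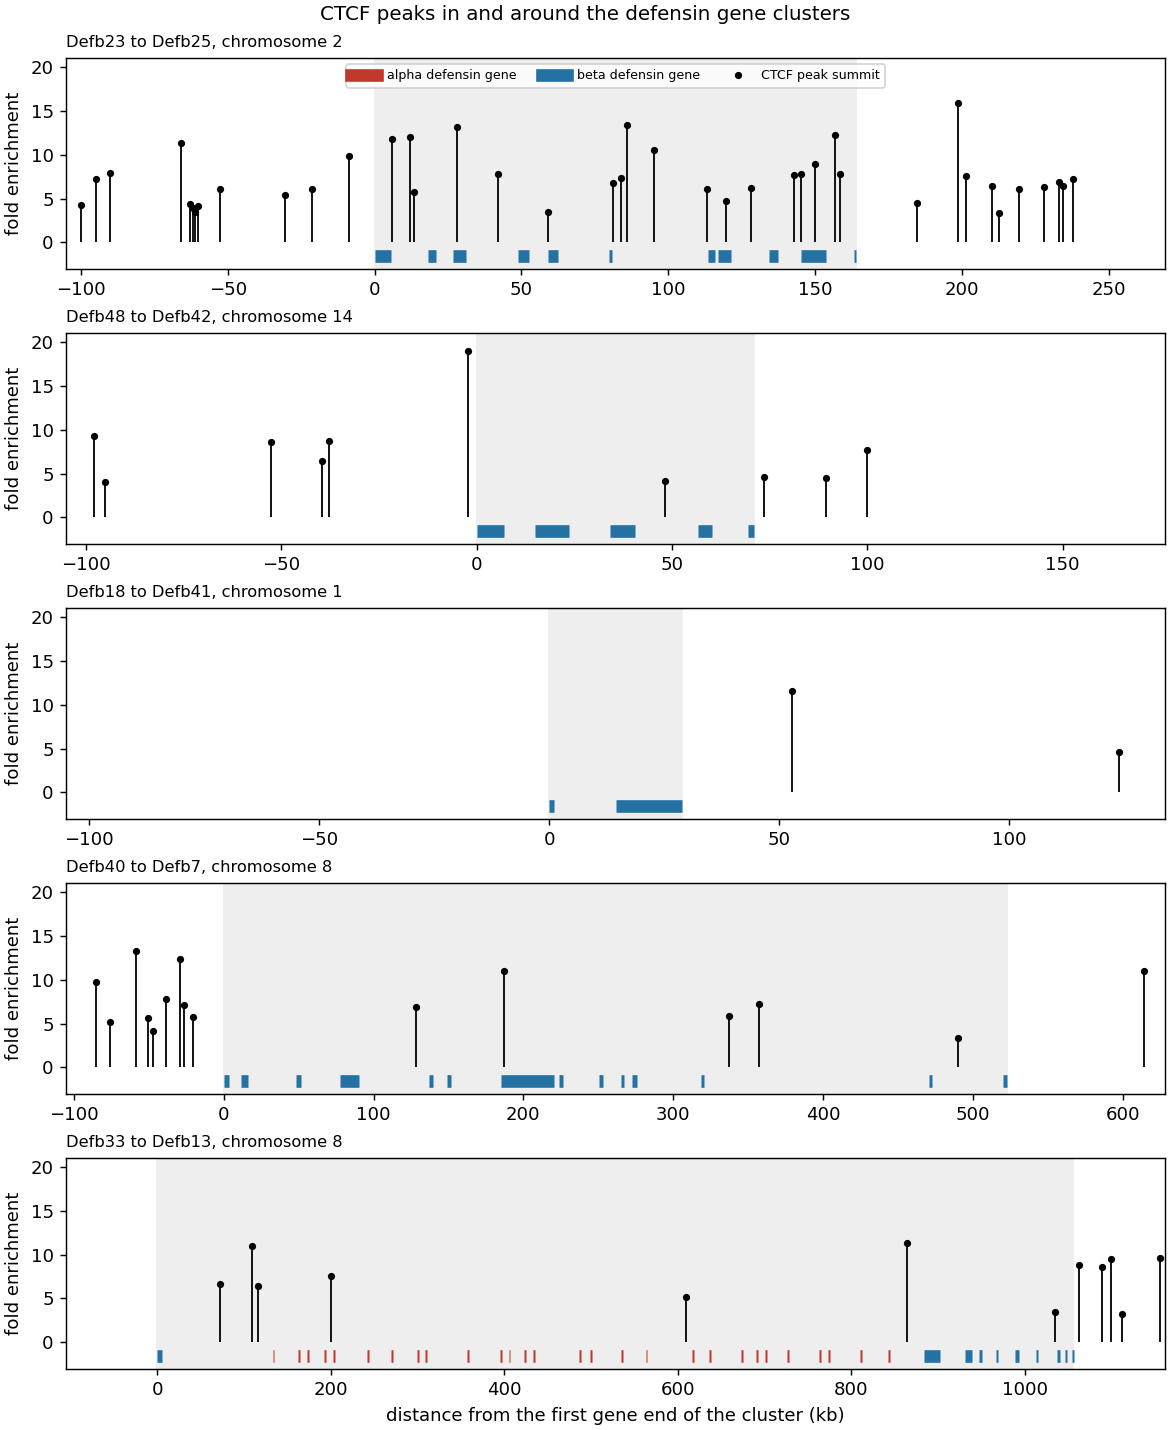
CTCF peaks in the 5 defensin clusters (grey) and 100 kb on either side, as fold enrichment at the summit against distance in kb from the first gene end of the cluster, with alpha defensin genes in red and beta defensin genes in blue below. The chromosome 2 cluster holds 18 peaks over 164 kb, and the alpha defensin genes stand in stretches without a peak.

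The alpha defensins all lie in the larger cluster of chromosome 8 (Defb33 to Defb13, 20892667 to 21948622), which has 28 alpha and 10 beta genes. The cluster contained 7 peaks in 1056 kb, or 6.63 per Mb (interval 2.67 to 13.7), beside 21.3 per Mb over the whole chromosome. Of 2267 windows of the cluster's length tiled over the autosomes, 25.2% held at most 7 peaks. The alpha block, from Defa21 to Defa24 (21025545 to 21735471), held 2 peaks in 709.9 kb, or 2.82 per Mb (interval 0.341 to 10.2). They had folds of 7.54 at 21093298, 1.67 kb from Defa38, and 5.20 at 21502422, 6.84 kb from Defa20. Of 3377 tiled windows of that length, 17.1% held at most 2 peaks. The 4 clusters of beta genes alone and the block from Defb1 to Defb13 together held 26.1 peaks per Mb (interval 16.9 to 38.5). Without chromosome 2 they held 8.81 per Mb (interval 3.54 to 18.1), an interval that overlaps that of the alpha block. These sums leave out Defb33 and the 4 peaks of the larger chromosome 8 cluster that lie in neither block.

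Between the 2 peaks of the alpha block stretched 409 kb without a summit, which held 14 alpha defensin genes. Of all 51610 distances from one summit to the next, 1.55% were longer. Each distance counts once whatever its length, so this is not the share of the genome that such stretches cover. The next stretch, of 254 kb up to a peak beyond Defa24, held 10 more alpha genes, and a shorter one of 84.6 kb held the remaining 4. Long stretches were not particular to the alpha class. Defb33 lay in one of 372 kb, 6 beta genes from Defb1 to Defb11 in one of 171 kb, and Defb18 and Defb41 in one of 157 kb. In the chromosome 2 cluster the longest stretch that held a gene was 26.1 kb. The peak that closes the alpha block, at 21756595 between Defa24 and Defb1, had the highest fold of the cluster, 11.4. On the other side, before Defa21, 3 summits at 20964722, 21001305 and 21008732 had folds of 6.64, 10.9 and 6.38. The beta block behind the alpha genes runs from Defb1 to Defb13 (21776555 to 21948622) and is a region whose deletion leaves male mice sterile. It had 9 genes and 1 peak, with a fold of 3.49 at 21927761, 2.05 kb from Defb15. The first summit beyond it stood 6.92 kb after Defb13, with a fold of 8.77. That flank held 5 peaks, the strongest with 9.61 at 22048303 in Atp7b, which encodes a copper transporter, and the flank before Defb33 held none.

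Repeated sequence differed by class and, within the beta class, by chromosome. A window was found in the RefSeq table for 45 of the 70 genes, 16 alpha and 29 beta, with 46 windows in all. Among the 16 alpha windows, a median of 100% of all 50-base stretches also occurred at another place in the table of promoter windows, with a range of 0 to 100%. The median was 0% for the 30 beta windows, with a range of 0 to 19.5%, and all 10 windows of the chromosome 2 cluster were at 0%. Any such stretch was present in 14 of 16 alpha windows and in 7 of 14 beta windows on chromosome 8, against 8.14% of all windows of protein-coding genes. By alignment, 10 of 16 alpha windows were identical to that of another alpha gene, as shown above for Defa2 and Defa20. The closest beta relatives shared a median of 57.7% of bases and at most 89.0%, for Defb3 and Defb8. That median was 79.0% for the 14 beta windows on chromosome 8 and 57.3% for the 10 of the chromosome 2 cluster. Pairs of an alpha and a beta window shared a median of 51.7%. How the authors treated reads that match several places is not given in the sources used here, and the part of read placement in the lack of peaks at alpha genes was not tested.

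**Figure D3:**
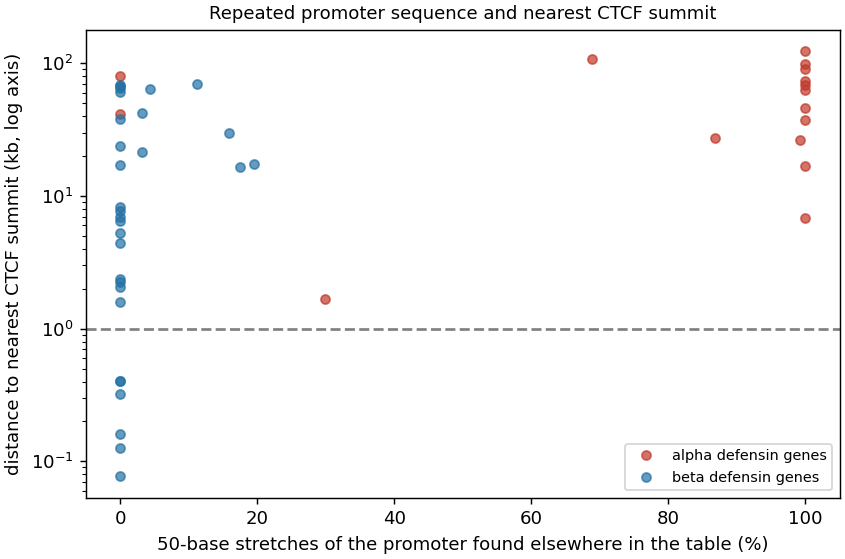
Percent of 50-base stretches of each promoter window that occur elsewhere in the promoter table, against distance from the gene to its nearest CTCF summit in kb on a log axis, for 16 alpha and 30 beta windows. The 10 alpha windows identical to another stand at 100%, and every point under the dashed line at 1 kb stands at 0%.

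Among the alpha windows, those of Defa28 and Defa30 had no repeated stretch. A repeated stretch was found in 7 of 30 beta windows, and most beta genes that had a window but no gene-end summit, such as Defb10, Defb13 and Defb48, had none either. Defa28 lay 80.5 kb and Defa30 41.4 kb from a summit. By start sites alone, 5 of 45 defensin genes had a summit within 1 kb, beside 37.1% of 17274 protein-coding genes, and these were 0 of 16 alpha and 5 of 29 beta genes. The windows of the alpha class had a median of 1 CG, those of the beta class 1.5, and those of all protein-coding genes 13. No window was found for Defa17, Defa24, Defa25, Defa26, Defa27, Defa29, Defa3, Defa33, Defa34, Defa39, Defa40, Defa5, Defb1, Defb12, Defb14, Defb18, Defb19, Defb2, Defb25, Defb34, Defb35, Defb37, Defb4, Defb40 and Defb50.

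The smaller cluster of chromosome 8 (Defb40 to Defb7, 18974914 to 19497775) holds 14 beta defensin genes, among them Defb4 and Defb14, which encode antimicrobial peptides of epithelia. It contained 5 peaks in 522.9 kb, or 9.56 per Mb (interval 3.11 to 22.3). Of 4588 windows of that length tiled over the autosomes, 37.9% held at most 5 peaks. The strongest peak of the cluster had a fold of 10.9 at 19161792, inside Defb14 and 1.55 kb from its end. The same summit was the nearest to Spag11a and Spag11b, epididymal genes with defensin-like domains, at 1.87 and 18.8 kb. The other folds were 6.86 at 19102958, 5.87 at 19311830, 7.26 at 19331981 and 3.31 at 19465018. The flank before Defb40 held 9 peaks, or 90.0 per Mb, with the strongest of fold 13.3 at 18916533, near Xkr5. The first summit on that side stood 20.7 kb from Defb40, with a fold of 5.70. The flank after Defb7 held 1 peak, 91.1 kb away, with a fold of 11.02.

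The chromosome 14 cluster (Defb48 to Defb42, 62977524 to 63048606) stood next to the strongest peak of any defensin cluster. Its summit, at 62975266, reached fold 19.0 (−log10 q 102) and ranked 110 of 51871 by fold. It lay 2.26 kb from Defb48 and 296 bp from an end of the pseudogene Gm21021. On the other edge a summit of fold 4.60 lay 2.37 kb from Defb42, and the strongest in that flank had 7.70 at 63077376. Inside, 5 genes and 71.1 kb held 1 peak, with a fold of 4.14 at 63025769, which is 14.1 per Mb (interval 0.356 to 78.4). The 2 flanks together held 9 peaks, or 45.0 per Mb (interval 20.6 to 85.4). The chromosome 1 pair, Defb18 and Defb41 (18236402 to 18265138), had 0 peaks in 28.7 kb. The first summit beyond it, at 18289066, lay 23.9 kb after Defb41 with a fold of 11.6, and the 100 kb before Defb18 held none.

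Outside chromosome 2, the clusters held fewer peaks per Mb inside than in both flanks together, but the sides were uneven. The flanks before Defb40 and Defb48 held 9 and 6 peaks, while those before Defb18 and Defb33 held 0. The flanks after Defb41, Defb7, Defb13 and Defb42 held 2, 1, 5 and 3. All 5 clusters held 31 peaks in 1843 kb, or 16.8 per Mb (interval 11.4 to 23.9), against 48 in 1000 kb of flanks, or 48.0 per Mb (interval 35.4 to 63.6). Without chromosome 2 the densities were 7.74 per Mb inside (interval 4.12 to 13.2) and 32.5 per Mb in the flanks (interval 21.2 to 47.6). Cluster by cluster, the intervals inside and in the flanks did not overlap for the smaller chromosome 8 cluster only. The median fold was 7.35 inside and 6.65 in the flanks, and without chromosome 2 it was 6.64 inside and 8.20 in the flanks.

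**Figure D4:**
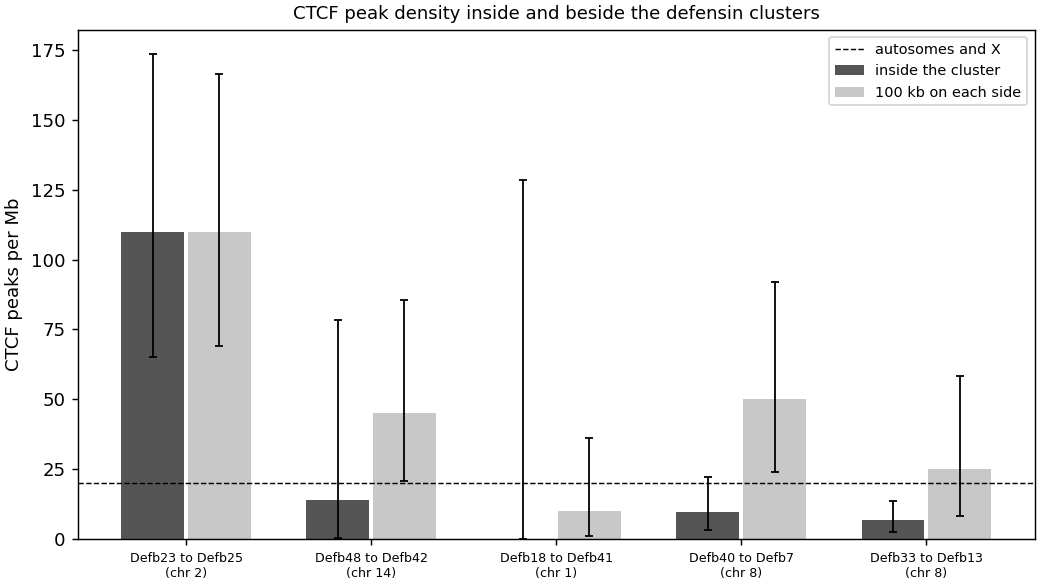
CTCF peaks per Mb inside each defensin cluster (dark bars) and in the 100 kb on each side together (light bars), with exact Poisson 95% intervals that cover counting error only and a dashed line at 20.1 per Mb for the autosomes and X. The chromosome 2 cluster and its flanks both reach 110 per Mb, and on chromosomes 8 and 14 the dark bars are lower than the light ones.

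Within 2.5 kb of a summit lay 12 of 70 defensin genes (17.1%), beside 51.1% of all protein-coding genes. The shares within 1 kb were 7.14% and 39.1%. Members just outside the 1 kb limit numbered 7, between 1 and 2.5 kb from a summit. They were Defb14 (1.55 kb), Defb22 (1.58 kb), Defa38 (1.67 kb), Defb19 (1.77 kb), Defb15 (2.05 kb), Defb48 (2.26 kb) and Defb42 (2.37 kb). Of 7 other protein-coding genes inside the clusters, 0 had a summit within 1 kb of an end, beside 39.1% of all protein-coding genes. Spag11a and Spag11b were among them, as was Defa-ps8, whose symbol names a defensin but falls outside the symbol rule used here.

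Genes tied to defensins by function were examined in the same way. Of 18 listed genes for defensin processing, receptors and other antimicrobial proteins, 17 were matched and 4 had a gene-end summit (23.5%, interval 6.81 to 49.9, which overlaps that of the defensins and includes the 39.1% of all genes). These were Slpi (fold 11.6), which encodes a protease inhibitor, Mc1r (8.85), a melanocortin receptor, Tlr2 (6.28), a receptor for bacterial lipoproteins, and Myd88 (3.01), its adaptor. Mmp7, the protease that activates cryptdins, lay 14.7 kb from a summit, and Ccr6, a receptor for beta defensins, 1.26 kb. Of 11 epididymal and sperm-coat genes, 0 had one, which allows up to 27.3% (exact interval 0 to 28.5). Among these, Eppin stood closest at 1.35 kb, beside a summit of fold 14.5, followed by Lcn5 at 1.47 kb.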

How the data were processed

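CTCF ChIP-seq was done on whole testes of F1 mice (2 IP and 2 input samples). The submitters' processing notes name BWA 0.7.12, MACS2 2.2.7 and mm10, without saying what each did. The authors deposited 1 merged peak list, whose peaks are named "bio2" and "merged", so which IP samples entered it is not settled. For each peak the authors deposited a fold enrichment (a ratio), a −log10 p, a −log10 q of at least 1.31 and a score, of which the −log10 p and the score were not used. No value per sample was analysed here, and the depth is unknown.

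Summits were set on the RefSeq table of GRCm38.p6 (mm10 coordinates, counted from 1), leaving out genes starting below 3 Mb. Gene ends had a 1 kb window, clusters a gap under 300 kb and flanks 100 kb. Shares have exact Clopper-Pearson and densities exact Poisson 95% intervals, and a share of 0 is also given the limit of 3 counts. Promoter windows were aligned globally with Biopython 1.88, and identity is the number of identical bases per 300. Python 3.11.15, pandas 2.3.3 and scipy 1.17.1 were used. Distances were tested on simulated data, where 100% of 200 summits planted within 1 kb of a gene start were recovered among 21523 genes. Recovery was fixed by this design, so it checks the distance calculation and not the sensitivity to real sites. Named genes were every defensin with a gene-end summit or one within 2.5 kb, each cluster's strongest peaks inside and beside it and first peaks beyond it, Spag11a and Spag11b, the farthest defensins and the bound genes of the related list; further genes were named after their values were seen. Members and lists were chosen with earlier results of these data known. Alternatives were other windows, peak thresholds, gaps and flanks, plus 2 added after seeing the data: start sites, and the clusters without chromosome 2.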

Additional observations from a re-analysis of the deposited data

How the results depend on the processing

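Of 37 alternatives, 26 kept their direction and stayed within the interval of the share or within 1.5 times the density or ratio. The share of defensin genes with a gene-end summit was 17.1% in a 2.5 kb window (51.1% of all protein-coding genes). It was 0% without the chromosome 2 cluster, a setting added after seeing the data. With clusters as units, 1 of 5 clusters (20%) had at least 1 such gene, which is a share of clusters and not of genes. The alpha minus beta difference of −11.9 percentage points was −22.6 at 2.5 kb and 0 without chromosome 2. Peaks per Mb were 8.68 inside and 29.0 in the flanks when only peaks in the upper part of the list by −log10 q (its median or more) were kept, and 7.74 inside without chromosome 2. The same −log10 q filter gave a defensin share of 4.29%, beside 17.0% of all protein-coding genes. For peaks of fold at least 5 these shares were 5.71% and 23.7%. The count of 26 did not take the fall from 39.1% in all protein-coding genes into account. The ratio of median fold inside to outside, 1.11, fell below 1 among peaks of fold at least 5 (0.992), with 50 kb flanks (0.972) and without chromosome 2 (0.810). The cause of these changes was not tested, beyond fewer peaks entering under a threshold. No paired analysis was possible because the list carries no value per sample, and for the same reason no replicate could be left out. With the depth unknown, missed weak sites cannot be counted.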

Other observations

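Between the defensin clusters of chromosome 8, from Defb7 to Defb33 (19497776 to 20892666), lay 1.39 Mb with no defensin gene and 30 peaks, a stretch examined after the values were seen. These peaks were weak for their number. Their median fold was 2.58, and 21 of 30 (70%) had a fold under 3, against 1661 of all 51871 peaks (3.20%). The stretch thus held 1.26% of all peaks of fold under 3 in the list. The lowest fold was 1.43, and the highest, 15.8, stood at 19979963. Their median −log10 q was 13.4. With these weak peaks counted, the density was 21.5 per Mb (exact Poisson 95% interval 14.5 to 30.7), beside 21.3 per Mb over the whole chromosome. The larger defensin cluster beside the stretch held 6.63 per Mb. Its lowest fold was 3.49, so these densities count peaks of unlike strength.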
